A study of Mus musculus with 9 samples.

Results

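Leukemic progenitors (LP) taken from mouse bone marrow in the early phase of a PML-RAR leukemia were compared with normal hematopoietic progenitor cells (HPC) of wild-type bone marrow. The comparison uses 6 of the 9 libraries of the series, chosen by their labels: 3 libraries of early LP and 3 of HPC. The other 3 libraries, LP of the median phase, entered the fit only to share its estimate of the spread. All mice were of the inbred strain FVB/NJ. For HPC the labels give wild-type donors of postnatal day 42. The early LP came from mice of the PML-RAR genotype, whose age is labelled as early phase with no day, and no agent is named for either group. The labels do not name the promoter that drives PML-RAR, the line, the sorting markers of either cell type or the number of animals behind a library. Phase, age and the mix of sorted cells therefore cannot be told apart from genotype. Since nothing says that libraries came from separate animals, p-values refer to the spread among libraries only, and part of it may be technical.

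PML-RAR is the fusion protein of acute promyelocytic leukemia. It joins PML, the protein that builds PML nuclear bodies, to the retinoic acid receptor alpha, and it binds DNA at retinoid receptor sites with corepressors attached. In normal marrow, progenitors that commit to the granulocyte line pass through the promyelocyte, a cell that fills its primary granules with proteases and myeloperoxidase before it stops dividing. Cells of acute promyelocytic leukemia accumulate near that stage, and the disease is known in patients for a bleeding disorder that involves clotting and fibrinolysis.

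RNA was measured by sequencing of libraries made with a TruSeq RNA kit from total RNA. Depth was 20.6 to 28.4 M fragments (M, mega) per library, as recovered from the deposited values. Levels are in CPM (estimated counts of a gene per 1 M counts, with TMM scaling between libraries) and are listed in the order of replicates 1, 2 and 3. A gene was called higher or lower at an edgeR quasi-likelihood adjusted p (Benjamini-Hochberg, over all genes tested, two-sided) under 0.05. Each gene described as risen or fallen had its 3 early LP libraries on 1 side of the 3 HPC libraries, apart from Cebpe and Chi3l3. Changes are log2 fold changes with their standard error (SE). Log2 CPM of genes with a mean above 1 CPM over the 9 libraries correlated at r = 0.993 to 0.996 between early LP libraries. The values were r = 0.990 to 0.995 between HPC libraries and 0.779 to 0.798 between the groups (across genes, which are not independent). Long transcripts differed between libraries of the same group: their relation to transcript length was r = -0.68 in HPC 3 and 0.52 in HPC 2, as deviations from the group mean across genes. In bulk RNA, fewer cells of a type and less RNA per cell cannot be told apart.

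The difference covered most of the transcriptome. Of 12837 genes tested, 9399 were called (73.2%), 4530 higher (35.3%) and 4869 lower (37.9%) in early LP. The 3 libraries of each group did not overlap for 74.7% of the genes. With so many calls, size says more than the call, and the counts of each list are to be read beside these shares. A total of 3529 called genes changed by less than 1.5-fold. At least 2-fold changes were held by 1999 called genes on the higher side (15.6%) and 1829 on the lower side (14.2%). A test against a 2-fold change (edgeR glmTreat) called 3078 genes (24%), 1564 higher (12.2%) and 1514 lower (11.8%). At least 4-fold changes were held by 960 higher and 1195 lower genes. The median log2 change of all genes tested was -0.04. Genes of chromosomes 8 and 15 stood above the others, with medians of 0.53 (706 genes) and 0.53 (498 genes) against -0.18 to -0.003 on the other chromosomes, and whether a gene lies there is stated below. Of the genes described, Acsl1, Calr, Cyba, F10, F7, Gpt2, Hp, Irf8, Klf1, Lamp1, Mvd, Nr2f6, Sc4mol, Sin3b, Slc7a2 and Zfpm1 lie on chromosome 8 and Abcd2, Angpt1, Atf4, Cbx7, Cpt1b, Csf2rb, Csf2rb2, Dmc1, Fzd6, Hdac7, Itgb7, Kdelr3, Ly6a, Ly6c2, Myc, Nfe2, Pim3, Rac2, Rarg, Rbfox2, Slc38a1, Slc38a2, Srebf2, Tuba1b and Vdr on chromosome 15. The loci of Ccnd2, Ccnd3, Cd34, Cebpd, Celf2, Cpt1b, Cxcl10, Dnmt3l, Dtx3, Eng, F5, H2-D1, Hdac7, Hk1, Hk3, Hvcn1, Il1r2, Itga1, Itgb4, Kdelr3, Lyn, Mmp19, Ncor1, P2ry14, Pcx, Psme1, Rasgrp4, Slc7a7 and Tbxas1 overlap another gene of the table, so their values are uncertain. The order of higher and lower counts turned or tied under at least 1 alternative for the nuclear receptor, chemoattractant receptor, integrin, Notch and Wnt, MAPK feedback, MMP and ADAM, coagulation and ABC transporter lists and for the B cell, mature neutrophil, monocyte and stromal markers, so no direction is given for them.

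**Figure D1:**
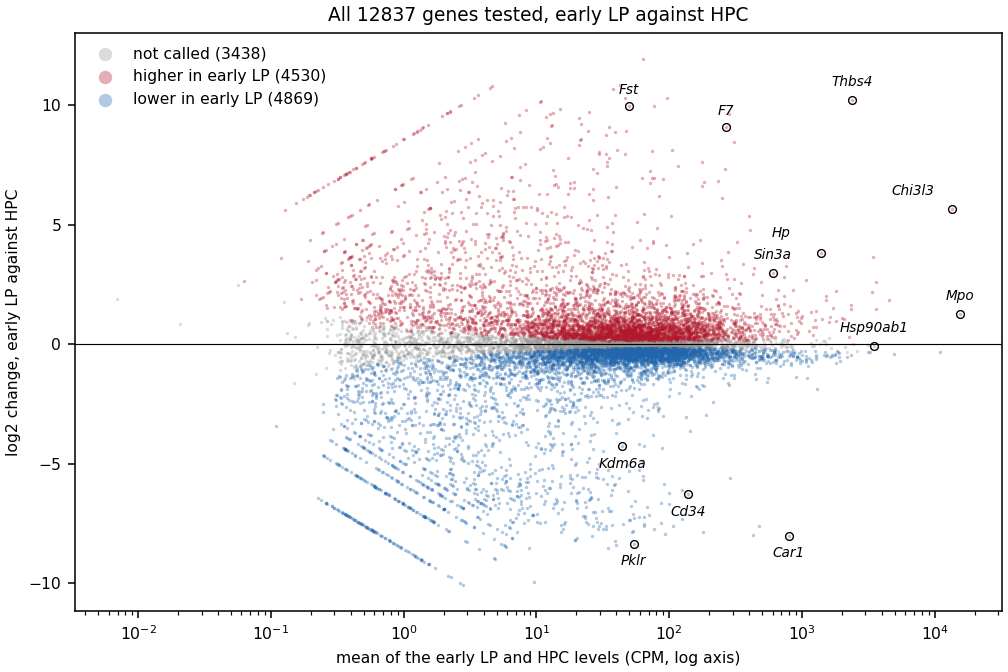
Log2 change of early LP against HPC (vertical) over the mean of both groups' levels in CPM (horizontal, log axis) for the 12837 genes tested; red points are genes called higher (4530), blue points genes called lower (4869) and grey points genes not called (3438), and circles mark genes described in the text. Calls reach across all levels, and the slanted lines at the left are genes whose libraries were at or near 0 in 1 group, for which the fitted change is no estimate of size.

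A small set of genes held its level. For 906 genes (7.06%) the 95% interval of the change lay within 1.2-fold in either direction. Without early LP 3 there were 546 genes with a change held within 1.2-fold. The most abundant of them serve basic cell functions. Hsp90ab1, the constitutive cytosolic chaperone, stood at 3294, 3389 and 3481 CPM in early LP and 3299, 3583 and 3832 in HPC, a log2 difference of -0.076 (95% interval -0.26 to 0.11). The other genes named by abundance were Ptma (prothymosin alpha, -0.035), Ppia (cyclophilin A, 0.008), Eif4a1 (an RNA helicase of translation initiation, 0.026), Tuba1b (an alpha tubulin, -0.013), Eif5a (a translation factor, -0.091), Hnrnpf (an RNA-binding protein, -0.071) and Caprin1 (an RNA granule protein, -0.11), with log2 differences in brackets. The libraries of the groups overlapped for Hsp90ab1, Ptma, Ppia, Eif4a1, Tuba1b and Hnrnpf. Caprin1 was called lower without HPC 3, after upper quartile scaling and on FPKM, at -0.14 to -0.22.

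Pml and Rara, the mouse genes of the fusion's partners, were both lower. Pml stood at 67.9, 69 and 63.4 CPM in early LP and 103, 105 and 106 in HPC, and fell by 0.65 (SE 0.061) on the log2 scale. Rara stood at 3.22, 3.51 and 3.33 and 4.99, 5.40 and 5.23 CPM, and fell by 0.63 (SE 0.17). The table has no entry for the fusion, so these values do not check the genotype.

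Marker genes show which marrow cells the libraries resembled. The stem and progenitor list was low in early LP: 11 of 12 tested markers were lower and 1 was higher (73.2% of all genes were called). Its summed level was 261 to 262 CPM in the 3 early LP libraries and 1014 to 1126 in the HPC libraries, with no overlap. The 1 higher marker was Ly6a (Sca-1), at 1.70, 1.76 and 2.04 against 0.797, 1.30 and 1.25 CPM, and it lost its call without HPC 1 or without early LP 3. Most of what was left in early LP was Kit, the stem cell factor receptor, at 252, 249.9 and 251.3 against 438, 459 and 413 CPM, which fell by 0.80 (SE 0.064). Meis1, a homeobox partner of Hox proteins in stem cells, stood at 0.0871, 0.251 and 0.167 against 28.2, 32.4 and 34.8 CPM and fell by 7.51 (SE 0.24). Slamf1, the SLAM receptor CD150, fell by 6.90 (SE 0.37) to 0.0871, 0.125 and 0.0833 CPM from 10.7, 12.7 and 13.9. Hlf, a leucine zipper factor of stem cells, fell by 6.55 (SE 0.21) to 0.261, 0.418 and 0.208 CPM from 25.1, 28.9 and 30.7. Of the markers that define stem and early progenitor cells, Kit was thus present in the libraries labelled LP, while Cd34, Flt3, Eng and Slamf1 stood between 0.0833 and 3.81 CPM.

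Promyelocyte genes were high instead. All 10 markers of that list were tested, 8 were higher, none was lower and 2 (Prtn3 and Nkg7) were not called. Their summed level was 41517 to 46390 CPM in early LP and 13868 to 15609 in HPC. Mpo, myeloperoxidase, was the most abundant of them in both groups, at 19999, 23365 and 22297 CPM in early LP and 9651, 8849 and 8781 in HPC (chromosome 11, 87793784 to 87804412 on mm10), and rose by 1.27 (SE 0.10). Elane, neutrophil elastase, stood at 6442, 7444 and 7408 against 2256, 1889 and 1851 CPM, and Prtn3, the related proteinase 3, at 1234, 1447 and 1360.2 against 1337, 1130.5 and 1125, which overlap. The proteases of primary granules therefore did not move as 1 block: cathepsin G (Ctsg) rose by 2.60 (SE 0.093), Elane rose by 1.83 (SE 0.10), and Prtn3 differed by 0.17 (SE 0.088, adjusted p = 0.102 by edgeR's quasi-likelihood test) and was called higher without HPC 1 (0.27). Ly6c2, a surface antigen of monocyte and granulocyte precursors with close relatives in its cluster, rose by 3.65 (SE 0.10), from 558, 449 and 519 to 6391, 6236 and 6556 CPM. Gfi1, the repressor that favours the granulocyte over the monocyte fate, rose by 1.69 (SE 0.10).

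Markers of the stages after the promyelocyte were mixed. Among 12 mature neutrophil markers 4 were higher, 2 lower and 6 not called. S100a8, a calcium-binding protein of neutrophil cytosol, stood at 5732, 5274 and 5581 against 1444, 916 and 1264 CPM and rose by 2.19 (SE 0.14). The secondary granule genes did not share a direction: Lcn2 (-0.05), Camp (-0.31) and Mmp8 (0.20) were not called. Ngp and Ltf (lactoferrin), also of these granules, fell, with an overlap for neither. Ngp went from 835, 408 and 745 to 222, 258 and 237 CPM and Ltf from 530.1, 309.9 and 494 to 154, 192 and 158. HPC 2 was the lowest HPC library in both, and it had the lowest sum of the list, 2973 CPM against 4642 and 5333 in the other HPC libraries. Monocyte and macrophage markers split, 4 higher and 5 lower of 10. F13a1, the transglutaminase subunit of factor XIII that monocytes carry, rose by 2.83 (SE 0.12) to 1235, 1302 and 1282 CPM from 207, 173 and 157, and Emr1, the macrophage antigen F4/80, rose by 2.85 (SE 0.11) from 5.28, 4.23 and 4.95 to 34.9, 37 and 32.5 CPM. Irf8, the factor that directs progenitors to monocytes and dendritic cells, fell by 4.88 (SE 0.13) from 129.7, 105 and 128 to 3.79, 4.77 and 3.79 CPM.

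Erythroid and megakaryocyte markers were nearly gone from early LP, and the lists of other blood lines fell by less, overlapped or rose. All 11 erythroid markers tested were lower, with a summed level of 194 to 211 CPM against 3678 to 4013 in HPC. Of that remainder, Tfrc, the transferrin receptor of any dividing cell, held 196, 174 and 173 CPM. Car1 and Car2, the carbonic anhydrases of red cell precursors, stood at 4.53, 6.65 and 7.08 and 4.09, 5.31 and 5.12 CPM against 1418, 1508 and 1806 and 946, 898 and 977. Of 10 megakaryocyte markers 8 were lower and 2 not called, and of 9 basophil and mast cell markers 7 were lower and 1 higher (Mcpt8, a basophil protease, rose by 1.17 (SE 0.11)). Their summed levels were 9.97 to 13.7 against 148 to 187 CPM and 315 to 326 against 621 to 666 CPM. Dendritic cell markers had 6 of 8 lower and 2 higher, with sums of 67.7 to 81.3 against 131 to 178 CPM. The B cell list summed higher in early LP, at 204 to 226 against 17 to 19.9 CPM, nearly all of it from 1 gene. Igll1, the surrogate light chain gene lambda5 of early B cells, stood at 199, 220.1 and 203 CPM in early LP and 0.671, 1.17 and 0.390 in HPC (chromosome 16, 16860671 to 16863985 on mm10) and rose by 8.13 (SE 0.19). Vpreb1, its partner in the surrogate light chain, rose by 3.53 (SE 0.22) from 0.294, 0.377 and 0.507 to 4.31, 5.35 and 4.21 CPM, while Cd79b of the same list fell by 5.62 (SE 0.25), Cd79a was not called, and Ms4a1 was too low to test. T and NK cell markers had summed levels of 147 to 160 and 143 to 161 CPM, which overlap and came mainly from Nkg7. Cd3g, Cd2 and Cd8a of that list and Pax5 and Blnk of the B cell list were at 0 in all early LP libraries. The stromal list summed to 69.9 to 76.7 CPM in early LP and 79.3 to 93.8 in HPC, and of its 6 tested markers 3 were higher and 3 lower. The part of these shifts in cell types in the gene lists described next was not tested.

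**Figure D2:**
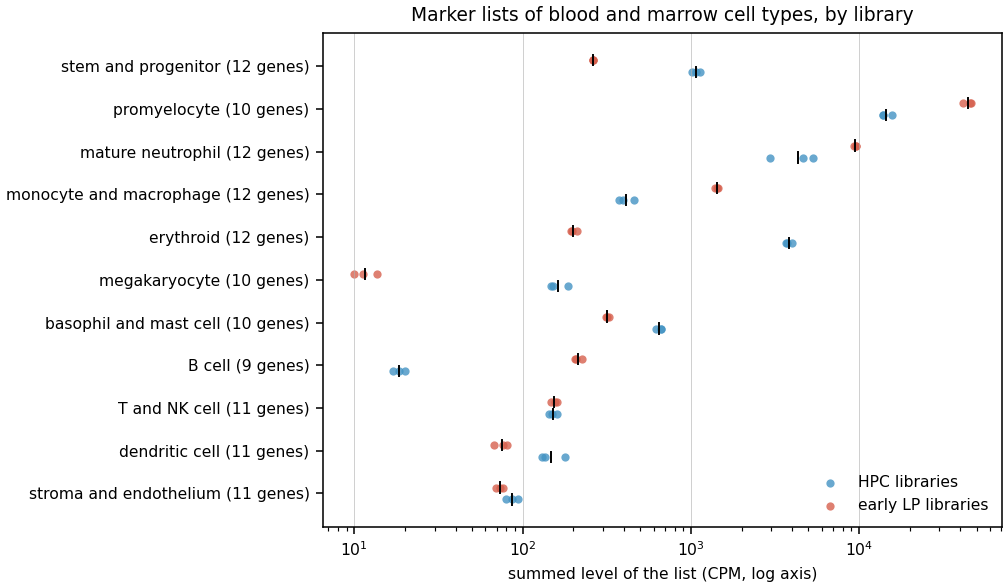
Summed level in CPM (horizontal, log axis) of each marker list in every library; red points are the 3 early LP libraries, blue points the 3 HPC libraries, and black ticks the group means. Erythroid markers stand at 194 to 211 CPM in early LP and 3678 to 4013 in HPC, promyelocyte markers at 41517 to 46390 and 13868 to 15609, and the T and NK cell lists overlap.

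A few genes held more of the counts in early LP than in HPC. The 10 most abundant genes of each library held 10.2, 7.42 and 10.5% of its counts in early LP and 5.12, 5.11 and 5.59% in HPC. The 12 genes with the largest gain in mean CPM held 9.12 ± 1.88% (SD, n = 3) of the counts of an early LP library and 2.09 ± 0.157% of an HPC library. These 12 were chosen by that gain, so the choice sets the direction of the difference. Chi3l3, a chitinase-like secreted protein of myeloid cells, led them but is uncertain: it stood at 40518, 0 and 39246 CPM in early LP, so early LP 2 was at 0, and at 699, 404 and 477 in HPC. Its near-identical neighbour Chi3l4 stood at 9.23, 563 and 7.08 CPM in early LP, high only in early LP 2. Without Chi3l3 the shares were 6.63 ± 0.348% and 2.04 ± 0.141%. Besides Mpo, Ly6c2, Ctsg, Elane and S100a8, the genes were Thbs4 (a thrombospondin of the matrix), the endoplasmic reticulum chaperones Calr and Hspa5, Hp (haptoglobin), Tmsb4x (thymosin beta 4, which binds actin) and H2-D1 (an MHC class I chain). Hp rose from 222, 169.6 and 167 to 2335, 2725 and 2707 CPM, and Tmsb4x from 668, 540.1 and 676 to 3012, 2778 and 3114. H2-D1, which has near-identical relatives, rose from 1237, 1191 and 1291 to 3294, 3723 and 3365 CPM.

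The 12 genes with the largest loss held 2.20 ± 0.0963% in early LP and 3.98 ± 0.158% in HPC, a direction again set by the choice. They were Eef1a1 and Eef2 (elongation factors of translation), the ribosomal protein genes Rps3a and Rps6, Npm1 (nucleophosmin of the nucleolus), Hspa8 (the constitutive Hsc70 chaperone), Atp5a1 (the alpha subunit of ATP synthase), Serinc3 (a membrane protein), Aqp1 (a water channel of red cells), Car1, Car2 and Xist (a noncoding RNA of X inactivation). Whether the sex of the donor mice differed between the groups was not tested. Aqp1 fell by 8.002 (SE 0.19) from 809, 791 and 974 to 3.40, 2.89 and 3.75 CPM. Npm1 fell by 0.78 (SE 0.092) from 2208, 2233 and 2445 to 1324, 1240.2 and 1441 CPM. The falls of Eef1a1 and Eef2 were small, at -0.31 (SE 0.12) and -0.33 (SE 0.12). Eef1a1 lost its call under 9 alternatives and Eef2 under 7, among them the fits without HPC 3 or without early LP 1 (adjusted p of 0.0740 to 0.121 by edgeR's quasi-likelihood test, at -0.19 to -0.25). Eef1a1, Rps3a, Rps6, Npm1 and Hspa8 have processed copies in the genome whose reads the counting may have split.

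Lineage transcription factors moved both ways. Of 46 tested, 27 were lower and 16 higher (37.9% and 35.3% among all genes). Their median log2 change was -0.49, and the sizes differed between the sides. Of the factors of the erythroid and megakaryocyte lines, 4 fell to low levels and others rose. Klf1, the erythroid Kruppel-like factor, stood at 0.566, 0.669 and 0.708 against 118, 123 and 145 CPM. Zfpm1, the GATA1 cofactor FOG1, stood at 0.392, 1.34 and 1.12 against 162, 176 and 178 CPM, Gfi1b at 0.392, 0.753 and 0.916 against 99, 99.4 and 127 and Gata1 at 0.305, 0.753 and 1.25 against 109, 111 and 130.1. Their log2 changes were -7.62, -7.48, -7.28 and -7.22. Ldb1 and Tal1, which join GATA factors in a complex but are also used in stem cells, were lower by less, at -1.86 and -2.05. In the other direction, Nfe2, a factor of erythroid and megakaryocyte genes, rose by 0.57 (SE 0.085) from 125, 125 and 153 to 192, 204 and 202 CPM, and Fli1, an ETS factor of the megakaryocyte line, rose by 1.16 (SE 0.089) from 50.5, 45.1 and 42.9 to 96.9, 107 and 106.

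Several factors of the granulocyte line rose. Cebpd, a C/EBP factor, rose by 2.83 (SE 0.12) from 28.2, 21.3 and 22.7 to 157, 192 and 163 CPM, Cebpb rose by 2.02 (SE 0.16) and Cebpa rose by 1.39 (SE 0.086). Cebpe, the C/EBP factor of late granule genes, rose by less, 0.28, and lost its call under 10 of 20 alternatives, among them the fit without HPC 2 (0.19). Sfpi1, the master myeloid factor PU.1, stood at 245, 293 and 260.3 against 95.4, 80.6 and 103 CPM and rose by 1.52 (SE 0.10). Id1, an inhibitor of basic helix-loop-helix factors, rose by 2.70 (SE 0.13) from 5.58, 4.02 and 4.68 to 30.2, 34.1 and 28.5 CPM. Ets1, an ETS factor better known from lymphoid cells, rose by 2.55 (SE 0.15) from 50.7, 33.4 and 31.1 to 224, 224 and 224 CPM. Myb and Myc, the proliferation factors of progenitors, were lower, at -0.82 and -0.34.

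Nuclear receptors are the family that PML-RAR enters. Of 22 tested, 7 were higher, 6 lower and 9 not called (59.1% called, below the 73.2% of all genes). Rxra, the partner that retinoid receptors need to bind DNA, stood at 40.1, 48.9 and 48.1 against 7.42, 6.57 and 6.47 CPM and rose by 2.74 (SE 0.10). Its sister Rxrb was at 86, 98.8 and 87 against 89.5, 92 and 106, which overlap. Pparg, the lipid-sensing receptor, rose by 5.004 (SE 0.23) from 0.377, 0.419 and 0.156 to 11.2, 9.66 and 9.87 CPM and Nr1h3, the oxysterol receptor LXR alpha, rose by 3.12 (SE 0.16) from 0.965, 1.21 and 1.05 to 8.40, 9.58 and 10.2 CPM. Nr2f6, an orphan receptor, rose by 1.59 (SE 0.14). Of the retinoic acid receptors, Rara fell as above and Rarg rose by 1.04 (SE 0.093) from 6.71, 6.70 and 6.12 to 13.6, 12.9 and 13.7 CPM. Nr1d1 (a clock receptor) fell by 0.95 (SE 0.14) and Vdr (the vitamin D receptor, chromosome 15) fell by 0.65 (SE 0.16). DESeq2, edgeR after upper quartile scaling, the replicate block on 6 libraries and the fits without early LP 1 or without early LP 2 called 7 higher and 7 lower. With no filter the counts were 7 higher and 8 lower.

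Among genes of DNA methylation and Polycomb silencing, 16 of 36 tested were lower, 9 higher and 11 not called (69.4% called, beside 73.2% of all genes). The members with the largest changes came from both sides. Dnmt3l, the catalytically inactive cofactor of the de novo DNA methyltransferases that is known from germ cells, rose from 0.126, 0.0837 and 0.273 to 11, 9.28 and 11.4 CPM (5.97, or 6.58 without HPC 3). The enzymes it works with moved the other way, Dnmt3a by -1.73 and Dnmt3b by -1.46. Tet1, a 5-methylcytosine oxidase, fell by 5.39 (SE 0.24) to 0.479, 0.460 and 0.416 CPM from 20.1, 23.2 and 14.04, while Tet2 rose by 0.80 (SE 0.16). Cbx2, a chromodomain subunit of Polycomb complex 1, fell by 5.59 (SE 0.24) from 11.2, 13.3 and 13 to 0.348, 0.167 and 0.250 CPM, and Cbx7, its relative, rose by 1.44 (SE 0.11). Kdm6a, the X-linked H3K27 demethylase UTX, stood at 4.40, 4.47 and 4.12 CPM in early LP and 88.8, 87.1 and 75.8 in HPC (chromosome X, 18162667 to 18279358 on mm10) and fell by 4.27 (SE 0.11). Its relative Kdm6b fell by 0.75 (SE 0.10), and Ezh2, the methyltransferase that writes the mark, fell by 0.86 (SE 0.060). Suz12, Bmi1 and Uhrf1 were not called.

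Remodellers and corepressors, among them partners through which retinoid receptors silence genes, had 19 of 33 tested lower and 7 higher. Among all genes 37.9% were lower and 35.3% higher. Most falls in the list were small, and its median was -0.32. Sin3a, the scaffold of the Sin3 histone deacetylase complex, went against them. It stood at 1108, 1021 and 1069.6 CPM in early LP and 135, 148 and 126 in HPC (chromosome 9, 57072040 to 57128368 on mm10) and rose by 2.97 (SE 0.088). No library lay between 148 and 1021 CPM. Its relative Sin3b rose by 0.75 (SE 0.086). Hdac9, a class II histone deacetylase, rose by 3.62 (SE 0.11) from 5.49, 4.23 and 4.49 to 60.7, 59.8 and 54.6 CPM, Hdac5 rose by 1.28 (SE 0.10) and Hdac7 fell by 1.29 (SE 0.069). Chd3, a NuRD remodeller, fell by 5.58 (SE 0.13) from 55.8, 57.9 and 50.5 to 1.13, 1.21 and 1.08 CPM, while Chd4, the NuRD remodeller of most cells, fell by 0.29 (SE 0.073). The receptor corepressor Ncor1 differed by 0.25 and was not called.

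**Figure D3:**
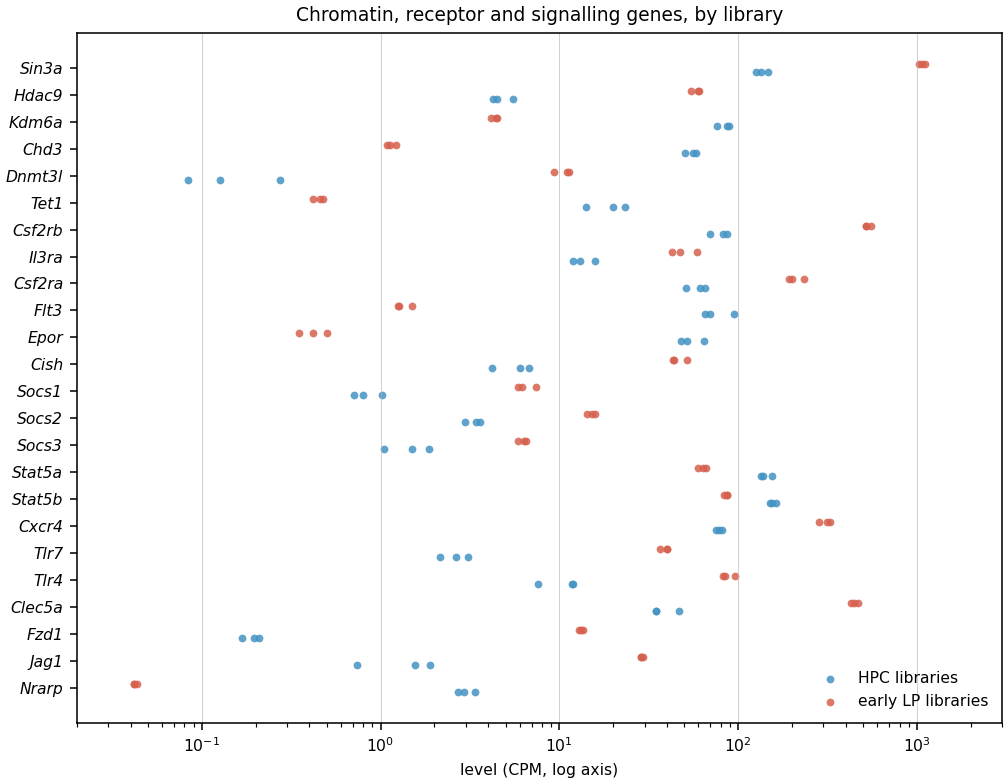
Level in CPM (horizontal, log axis) of 24 chromatin, receptor and signalling genes in every library, early LP in red and HPC in blue. Sin3a stands at 1108, 1021 and 1069.6 CPM in early LP and 135, 148 and 126 in HPC, and Kdm6a at 4.40, 4.47 and 4.12 and 88.8, 87.1 and 75.8. No gene's groups overlap, as for 74.7% of all genes tested. Most of the 24 were named by a rule that asks for this or after their values were seen, so it is no result about them.

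Among receptors for cytokines and growth factors some replaced others. Of 44 tested, 22 were higher, 18 lower and 4 not called (90.9% called, beside 73.2% of all genes). Of the receptors of early and erythroid progenitors, Kit fell by less than 2-fold (-0.80), as described above, and 3 fell to low levels: Epor (erythropoietin) stood at 0.348, 0.418 and 0.4998 against 48.2, 51.8 and 64.5 CPM, Tek (the angiopoietin receptor TIE2) at 0.0871, 0.0418 and 0.0416 against 5.998, 6.24 and 7.33 and Flt3 at 1.26, 1.25 and 1.499 against 65.6, 69.9 and 95.5. The interleukin 3 and GM-CSF receptor chains rose. Csf2rb, the chain that both share, stood at 519, 552 and 519.8 CPM in early LP and 86.6, 81.9 and 69.3 in HPC (chromosome 15, 78325990 to 78351001 on mm10) and rose by 2.74 (SE 0.090). Its near-identical copy Csf2rb2 rose by 2.11 (SE 0.093), and reads of the pair are hard to separate. Il3ra rose by 1.86 (SE 0.13) from 13.1, 11.98 and 15.9 to 42.6, 58.9 and 47.4 CPM and Csf2ra rose by 1.82 (SE 0.11) from 65.3, 51.1 and 61.5 to 193, 233 and 201. Csf3r, the G-CSF receptor of the granulocyte line, rose by 0.92 (SE 0.13), whereas Csf1r, the M-CSF receptor of the monocyte line, fell by 1.76 (SE 0.11). Il6st, the gp130 chain of interleukin 6 signalling, fell by 4.92 (SE 0.15) from 51.1, 45.2 and 42.4 to 1.74, 1.34 and 1.499 CPM, while Il6ra was not called. Il1r2, the interleukin 1 decoy receptor, rose by 5.48 (SE 0.19) from 0.755, 0.419 and 0.273 to 21.4, 23.4 and 20.03 CPM.

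Downstream of these receptors, feedback inhibitors moved both ways and both STAT5 genes fell. In the JAK, STAT, SOCS and PIM list 19 of 30 tested were higher and 5 lower (35.3% and 37.9% among all genes). Cish stood at 43.7, 52.1 and 43.4 CPM in early LP and 4.19, 6.74 and 6.01 in HPC (chromosome 9, 107296689 to 107301961 on mm10) and rose by 3.04 (SE 0.15). Socs1 rose by 2.94 (SE 0.20) from 0.797, 0.712 and 1.01 to 5.88, 7.44 and 6.21 CPM, Socs2 rose by 2.18 (SE 0.11) from 2.98, 3.43 and 3.59 to 15.2, 14.3 and 15.8 and Socs3 rose by 2.07 (SE 0.18) from 1.05, 1.51 and 1.87 to 6.31, 6.52 and 5.87. All 4 encode SOCS-box proteins that are induced by and shut off cytokine receptors. Their relatives Socs6 and Socs7 fell, at -0.75 (SE 0.082) and -0.41 (SE 0.090), Socs5 rose by 0.21 (SE 0.069), a call lost under 3 alternatives, and Socs4 was not called. Stat5a and Stat5b, the factors known to induce Cish and Socs2, were lower at the RNA level. Stat5a stood at 59.3, 66.1 and 63.6 against 133, 138 and 155 CPM (-1.18) and Stat5b at 86.9, 86.7 and 83.1 against 154, 151 and 164 (-0.87). Jak2, the kinase of the Epor and Csf2rb chains, fell by 0.61 (SE 0.063).

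The gene of the ligand interleukin 3 was detected with its receptor. Il3 stood at 5.88, 4.98 and 5.25 CPM in early LP and at 0 in all HPC libraries, at least 124-fold higher against a floor of 3 fragments over the HPC group. Of 32 cytokine and growth factor ligands tested (46 in the table), 15 were higher and 9 lower (75% called, beside 73.2% of all genes). Fst, the activin antagonist follistatin, stood at 101, 97.3 and 100.1 CPM against 0.0839, 0.0837 and 0.117 (chromosome 13, 114452262 to 114458730 on mm10) and rose by 9.95 (SE 0.16). Cxcl10, an interferon-induced chemokine, rose by 5.46 (SE 0.37) from 0.713, 0.377 and 0.741 to 26.5, 27.1 and 28.1 CPM. Angpt1, the TIE2 ligand, fell by 6.77 (SE 0.19) from 88, 105 and 113 to 0.697, 0.795 and 1.29 CPM, so ligand and receptor (Tek) were both lower. Tnfsf10, the death ligand TRAIL, fell by 1.63 (SE 0.18). Vegfa, the angiogenic factor, rose by 1.79 (SE 0.093) from 51.8, 50.4 and 43.6 to 168, 170.5 and 164 CPM.

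Tyrosine kinase, MAPK, Notch and Wnt genes were split. Of 38 Src, Syk and Tec pathway genes 15 were higher, 13 lower and 10 not called. Lyn, a Src kinase of myeloid cells, rose by 1.21 (SE 0.057), and the adaptors Lcp2 (SLP-76) and Card9 rose by 1.34 (SE 0.067) and by 1.36 (SE 0.10). The adaptor Lat fell by 1.68 (SE 0.15). Of 27 MAPK feedback genes 12 were lower and 9 higher. Spry2, a Sprouty inhibitor of receptor signalling, rose by 1.86 (SE 0.094) from 12.8, 11.64 and 11.5 to 42.2, 44.8 and 43.1 CPM, Rasa4, a Ras GTPase-activating protein, fell by 4.76 (SE 0.16) from 50.2, 41.7 and 52.1 to 1.70, 1.67 and 1.92, and Dusp2, a MAPK phosphatase, fell by 1.33 (SE 0.20). With limma on log2(FPKM + 0.1) that list turned to 7 higher and 6 lower.

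Of 39 Notch and Wnt genes tested, 19 were lower and 13 higher, and targets and ligands parted. Hes1 and Nrarp, which active Notch induces, stood at 0, 0 and 0.0416 against 1.13, 1.38 and 1.87 CPM and at 0.0435, 0.0418 and 0.0416 against 2.94, 2.72 and 3.35. Of the 4 Notch receptors, Notch1 rose by 0.85 (SE 0.12), Notch2 fell by 1.09 (SE 0.12) from 117, 121 and 89.4 to 54.9, 51.2 and 47.3 CPM, Notch3 fell by 3.72 (SE 0.58) from 0.713, 1.05 and 0.663 to 0.0435, 0.125 and 0, and Notch4 was not called. Jag1, a Notch ligand, rose by 4.38 (SE 0.19) from 1.89, 1.55 and 0.741 to 29.5, 28.6 and 28.6 CPM, and Fzd1, a Wnt receptor, rose by 6.08 (SE 0.19) from 0.168, 0.209 and 0.195 to 12.9, 13.2 and 13.6. Of the other Wnt receptors of the Frizzled family, Fzd3, Fzd5 and Fzd7 rose by less, at 0.88, 1.25 and 0.41. Fzd6 fell by 5.44 (SE 0.42) from 3.94, 4.31 and 5.27 to 0, 0.125 and 0.167 CPM, and Fzd8 was at 0 in all early LP libraries against 1.05, 0.670 and 1.05 CPM, at least 23.5-fold lower. Dtx4, a Deltex ubiquitin ligase, rose by 1.99 (SE 0.088), and its relative Dtx3, fell by 1.31 (SE 0.080). Ctnnb1 (beta catenin) and Apc were not called. On FPKM the counts were 12 higher and 10 to 11 lower.

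Genes by which myeloid cells sense microbes were higher as a group. Of 41 pattern recognition receptors and adaptors tested, 30 were higher, 6 lower and 5 not called, against 35.3% higher among all genes. The median log2 change was 0.76, beside -0.04 for all genes. Tlr7, the endosomal RNA sensor, stood at 40.05, 39.8 and 36.5 CPM in early LP and 3.10, 2.64 and 2.15 in HPC (chromosome X, 167304931 to 167330528 on mm10) and rose by 3.88 (SE 0.11). Tlr4, the endotoxin receptor, stood at 96.3, 82.4 and 84.8 against 11.7, 11.9 and 7.61 CPM and rose by 3.08 (SE 0.14), while Cd180, a TLR4-like antagonist, fell by 3.9995 (SE 0.23) from 10.2, 8.54 and 10.6 to 0.697, 0.669 and 0.458. Clec5a, a C-type lectin of granulocyte and monocyte precursors, reached 469, 445 and 429 CPM from 46.9, 34.6 and 34.9 (3.53). Nlrp12, an inhibitory NOD-like receptor of neutrophils, rose by 3.31 (SE 0.15) from 4.03, 2.51 and 2.54 to 30.2, 31.4 and 28.4 CPM. Tmem173, the DNA-sensing adaptor STING, fell by 1.502 (SE 0.094).

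Fc, Siglec and paired receptors had 20 of 31 tested higher and 6 lower (35.3% and 37.9% among all genes), with a median of 1.12. Lilrb4 and Gp49a, neighbouring near-identical inhibitory receptor genes whose reads are hard to separate, rose by 3.91 (SE 0.13) and by 2.38 (SE 0.27). Fcgr3, a low affinity IgG receptor, rose by 1.93 (SE 0.11) from 37.9, 27.6 and 30.2 to 115, 127 and 122 CPM. Cd33, a sialic acid receptor of myeloid cells, rose by 1.93 (SE 0.17) from 11.1, 7.998 and 7.68 to 35.7, 35.2 and 31 CPM, and Lair1, a collagen receptor, fell by 0.97 (SE 0.15).

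The machinery of granules and of oxidant production showed the same direction with smaller changes. Of 10 NADPH oxidase genes 7 were higher and none lower (70% called, beside 73.2% of all genes, 35.3% higher and 37.9% lower). Without chromosomes 8 and 15, 4 of 7 remained higher. Cyba, the p22phox subunit, stood at 262, 318 and 285 against 69.7, 56.4 and 77.9 CPM and rose by 2.08 (SE 0.11). Cybb, the catalytic gp91phox, rose by 0.82 (SE 0.15), and Ncf1, p47phox, was not called at 158, 166 and 158 against 201, 138 and 161 CPM, which overlap. Rac2, the GTPase of the complex, rose by 1.06 (SE 0.090), and Hvcn1, a proton channel, rose by 2.09 (SE 0.10). Of 48 lysosomal genes 31 were higher and 7 lower, with a median of 0.63. Grn, progranulin, rose by 2.55 (SE 0.090) from 107, 95.1 and 103 to 539, 665 and 589 CPM, Cd68 rose by 2.20 (SE 0.10) and Lamp1 rose by 1.47 (SE 0.074). Ctse, an aspartic protease, fell by 2.98 (SE 0.10) from 329, 309 and 369 to 43.2, 44.5 and 40.2 CPM and Sgsh, a heparan sulfatase, fell by 2.72 (SE 0.16).

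Annexins and S100 proteins, which bind calcium and membranes, had 12 of 18 tested higher and 2 lower (35.3% and 37.9% among all genes). S100a6 stood at 141, 162 and 168 CPM against 5.87, 4.15 and 6.12 and rose by 4.86 (SE 0.15). Anxa2, the annexin that holds plasminogen and its activator on the cell surface, stood at 306, 325 and 322 against 46, 38.4 and 47.4 CPM and rose by 2.85 (SE 0.090). Its partner in that complex, S100a10, was lower, at 36, 34.1 and 36.9 against 42.4, 47.4 and 63.6 CPM (-0.52). S100a4 rose by 2.79 (SE 0.25) from 1.97, 1.09 and 1.91 to 10.1, 11.7 and 12.9 CPM, and S100pbp fell by 1.42 (SE 0.14). Genes of chemoattractant receptors, integrins and tetraspanins lay on both sides.

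Receptors for chemoattractants had 11 of 23 tested lower and 9 higher. P2ry14, a nucleotide sugar receptor of progenitors, fell by 6.03 (SE 0.36) from 5.16, 5.15 and 7.29 to 0.0871, 0.125 and 0.0416 CPM. Cx3cr1, the fractalkine receptor of monocytes, fell by 2.80 (SE 0.19). Ccr1, a chemokine receptor of phagocytes, rose by 2.79 (SE 0.18) from 3.90, 2.76 and 2.30 to 21.5, 21.3 and 18.9 CPM and S1pr3, a sphingosine phosphate receptor, rose by 2.28 (SE 0.13) from 9.14, 11.9 and 8.58 to 49.1, 51.6 and 42.9. Cxcr4, which retains cells in the marrow, stood at 312, 328 and 283 against 80.8, 77.8 and 74.8 CPM and rose by 1.98 (SE 0.073). The lower majority rests on genes of low level: with at least 1 CPM in 3 libraries the counts were 9 higher and 7 lower.

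Of 19 integrin chains, 9 were higher and 8 lower, a balance that turned in several alternatives. Itga2b, the platelet chain CD41, fell by 5.51 (SE 0.18), and Itgb7 fell by 2.34 (SE 0.20). Itgb4, a laminin receptor chain of epithelia, rose by 4.63 (SE 0.27) from 0.336, 0.293 and 0.351 to 7.31, 8.74 and 8.58 CPM, and Itga1, a collagen receptor chain, rose by 2.66 (SE 0.21). Of 22 tetraspanins, the membrane organisers, 14 were lower and 7 higher (37.9% and 35.3% among all genes). Tspan33, an erythroid member, fell by 8.52 (SE 0.17) from 67.6, 68.8 and 71.4 to 0.305, 0.167 and 0.0833 CPM and Tspan13 fell by 5.58 (SE 0.17) from 67.6, 79.7 and 98.1 to 1.39, 1.67 and 2.04. Tspan8 fell by 6.74 (SE 0.36), and Tspan6 was lower by a ratio of 563 (95% counting interval 101 to 22271) that rests on 1 fragment in early LP. Tspan17 rose by 4.48 (SE 0.16) and Cd53, the leukocyte tetraspanin, rose by 2.21 (SE 0.079) from 87, 72.2 and 80.2 to 363, 363 and 381 CPM.

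Coagulation genes bear on what promyelocytic leukemia is known for. Of 30 clotting, fibrinolysis and complement genes tested (41 in the table), 14 were higher and 13 lower (35.3% and 37.9% among all genes). At least 2-fold changes were held by 13 higher and 11 lower members, beside 15.6% and 14.2% of all genes. F7, the protease factor VII that starts clotting with tissue factor and is made in liver, stood at 486, 553 and 558 CPM in early LP and 0.629, 1.47 and 0.819 in HPC (chromosome 8, 13026034 to 13035809 on mm10). It rose by 9.10 (SE 0.19), or between 8.88 and 9.53 when a library was left out. F10, factor X, rose by 2.50 (SE 0.11) from 19.8, 14.9 and 14.9 to 86.7, 94.2 and 98.9 CPM, and F5, its cofactor, rose by 2.46 (SE 0.19) from 29.9, 21.6 and 15.8 to 139, 116 and 115. F13a1, described above, crosslinks the clot. F8, the cofactor factor VIII, fell by 1.89 (SE 0.32) from 1.80, 1.88 and 1.25 to 0.653, 0.418 and 0.250 CPM, and Procr, the receptor of the anticoagulant protein C, fell by 1.39 (SE 0.31) from 1.47, 2.18 and 2.89 to 0.522, 1.13 and 0.833. Of the inhibitors, Tfpi2, a Kunitz inhibitor, rose by 4.30 (SE 0.17) from 0.713, 0.502 and 0.585 to 11.2, 12.002 and 12.5 CPM, and Thbd, thrombomodulin, rose by 1.87 (SE 0.20). F2r, the thrombin receptor PAR1, fell by 6.47 (SE 0.25) from 38.5, 52.3 and 60.2 to 0.392, 0.627 and 0.666 CPM. C3, the central complement protein, rose by 2.28 (SE 0.15) from 381, 258 and 247 to 1414, 1500.0 and 1376 CPM, and Cd55, which protects cells from complement, fell by 4.19 (SE 0.16) from 32.1, 35.4 and 35.8 to 1.92, 2.01 and 1.71.

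Protease inhibitors and metalloproteases changed on both sides. Of 21 serpins, cystatins and relatives tested (32 in the table), 11 were higher and 8 lower. Serpine2, protease nexin 1, rose by 2.86 (SE 0.077) from 44.7, 41.9 and 39.7 to 303, 307 and 306 CPM. BC100530, a stefin A gene with near-identical copies, rose by 4.02 (SE 0.20). Serpinb6b fell by 6.06 (SE 0.27) and Serpini1, neuroserpin, fell by 3.58 (SE 0.27). Of 21 MMP and ADAM family genes 8 were lower, 7 higher and 6 not called. Mmp14, a membrane-bound collagenase, fell by 7.14 (SE 0.29) from 15.6, 16.9 and 23.2 to 0.0871, 0.0836 and 0.208 CPM, and Bmp1, a procollagen proteinase, was lower by a ratio of 719.8 (95% counting interval 129 to 28468) that rests on 1 fragment in early LP. Mmp19, rose by 2.18 (SE 0.10) and Adam15 rose by 1.42 (SE 0.086).

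Genes of entry into the secretory pathway were higher at nearly all of its steps. Of 54 genes of ER translocation, folding and exit, 47 were higher, 1 was lower and 6 were not called, against 35.3% higher and 37.9% lower among all genes. Their median log2 change was 0.67, and their summed level was 28594 to 30031 CPM in early LP and 13475 to 14633 in HPC. Hspa5, the chaperone BiP, stood at 3457, 3515 and 3753 against 1201, 1216 and 980.4 CPM and rose by 1.66 (SE 0.095). Calr, the lectin chaperone calreticulin, rose by 1.47 (SE 0.088) from 2026, 1945 and 1776 to 5029, 5182 and 5674 CPM, whereas Canx, its membrane-bound relative, rose by 0.26 (SE 0.079) and lost its call without early LP 3 (0.23). Pdia5, a disulfide isomerase, rose by 2.24 (SE 0.068) from 22.8, 20.1 and 20.3 to 96.9, 101 and 101 CPM, and Ero1l, the oxidase that recharges these enzymes, rose by 1.69 (SE 0.13). Sec24d, a COPII coat protein of ER exit, rose by 1.88 (SE 0.069), while its relatives Sec24a, Sec24b and Sec24c changed by 0.42, -0.10 (not called) and 0.25. Sec24a lost its call without early LP 1 (0.31). Kdelr3, which returns escaped chaperones to the ER, rose by 6.56 (SE 0.16) from 0.294, 0.419 and 0.195 to 28.7, 28.2 and 29.4 CPM. Its relatives Kdelr1 and Kdelr2 rose by 0.35 (SE 0.057) and by 1.10 (SE 0.070). Sec61a2, a second copy of the channel subunit, was the lower member at -0.40.

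Enzymes of the next compartment lay on both sides. Of 46 Golgi glycosyltransferases and sulfotransferases, 23 were lower, 14 higher and 9 not called (37.9% lower and 35.3% higher among all genes). Chst10, which makes the HNK-1 sulfoglycan, was lower by a ratio of 438 (95% counting interval 121 to 3625), and St6galnac3 by 213 (95% counting interval 58.8 to 1768), each with 2 fragments in early LP. B3gnt7 fell by 5.81 (SE 0.30) from 8.93, 12.9 and 12.2 to 0.261, 0.251 and 0.0833 CPM, and St8sia6, a sialyltransferase, fell by 6.23 (SE 0.40) from 6.92, 5.78 and 7.53 to 0.0871, 0 and 0.167 (-7.14 without early LP 3). B3gnt5, which starts lacto-series glycolipids, rose by 2.83 (SE 0.092) from 35.3, 32.1 and 27.5 to 229, 233 and 215 CPM, and St8sia4, the polysialyltransferase, rose by 1.98 (SE 0.11) from 54.2, 58.4 and 44.4 to 207, 207 and 204.

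Most genes of cholesterol synthesis and uptake were higher. Of 31 tested, 25 were higher (35.3% among all genes), 3 lower (37.9%) and 3 not called, with a median of 0.64. Enzymes from its early to its late steps rose: Hmgcs1 rose by 1.03 (SE 0.072), Mvd rose by 2.54 (SE 0.10) from 5.91, 5.28 and 7.06 to 32.8, 37.1 and 36.5 CPM, Fdps rose by 1.64 (SE 0.076) and Sc4mol rose by 2.10 (SE 0.10). Soat1, which esterifies cholesterol for storage, rose by 2.21 (SE 0.10) from 49.996, 45.3 and 37.9 to 197, 213 and 206 CPM. Srebf2, the factor that drives these genes, rose by 1.08 (SE 0.066). The sterol element, of which 1 form was searched on both strands, was in none of the 23 promoters of the list that RefSeq gives and in 13 of 10203 promoters of all genes tested (0.127%), which says only that this form is not in those windows. The lower members included Apoe, the lipoprotein ligand, which fell by 4.36 (SE 0.14) from 150.2, 154 and 203 to 7.44, 8.82 and 8.41 CPM, and the exporter Abca1, which fell by 2.05 (SE 0.22).

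Fatty acid genes went the other way, with 25 of 41 tested lower and 10 higher (37.9% and 35.3% among all genes, median -0.28). Acsl6, an acyl-CoA synthetase, fell by 7.42 (SE 0.26) from 21.2, 17.8 and 21.5 to 0.174, 0.0836 and 0.0833 CPM, and the desaturases Fads3 and Fads2 fell, at -5.35 (SE 0.13) and -2.17 (SE 0.12). Elovl6, an elongase, fell by 4.51 (SE 0.15) from 31, 31.4 and 27 to 1.52, 1.21 and 1.17 CPM. Enzymes of synthesis proper rose by less than 2-fold: Fasn rose by 0.77 (SE 0.10) and Acly rose by 0.67 (SE 0.059). Acsl1 rose by 1.59 (SE 0.065) from 144, 129 and 134 to 404, 422 and 403 CPM and Cpt1b rose by 1.68 (SE 0.19). The TCA cycle and pyruvate dehydrogenase list had 22 of 36 lower and 10 higher, all of the falls under 2-fold. Pck2, a mitochondrial carboxykinase, fell by 0.91 (SE 0.10). Against that, Idh1, the cytosolic isocitrate dehydrogenase, stood at 250.01, 246 and 249.5 against 79.1, 80.5 and 74.8 CPM and rose by 1.67 (SE 0.063), Mpc2, a pyruvate carrier, rose by 1.27 (SE 0.10) and Pcx, pyruvate carboxylase, rose by 0.90 (SE 0.10).

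Serine, one-carbon and amino acid genes had 25 of 44 tested higher and 11 lower (35.3% and 37.9% among all genes). Part of the list is known to be driven by ATF4, the stress factor that binds a composite C/EBP-ATF element, searched here as TGATGNAAN on both strands. That motif was present in 8 of the 35 promoters of the list that RefSeq gives (22.9%) and in 231 of 10203 promoters of all genes tested (2.26%). The promoters span 250 bases before to 50 after the start. The 8 were those of Chac1, Trib3, Slc7a11, Pycr1, Asns, Got1, Slc7a7 and Slc1a4. A match describes letters and not a bound site. The promoters of 3 higher genes and of Asns, the textbook example that was not called, are shown 5′ to 3′ on the strand of the gene, with the matched bases in capitals (RefSeq, GRCm38.p6, the build also called mm10).
Chac1 (chr2:119350992-119351291, + strand): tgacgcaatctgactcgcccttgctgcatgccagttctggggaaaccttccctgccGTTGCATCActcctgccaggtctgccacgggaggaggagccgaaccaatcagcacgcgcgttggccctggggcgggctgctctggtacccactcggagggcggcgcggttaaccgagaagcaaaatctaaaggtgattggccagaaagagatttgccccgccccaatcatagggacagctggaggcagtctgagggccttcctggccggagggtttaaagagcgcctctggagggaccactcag
Trib3 (chr2:152344011-152344310, - strand): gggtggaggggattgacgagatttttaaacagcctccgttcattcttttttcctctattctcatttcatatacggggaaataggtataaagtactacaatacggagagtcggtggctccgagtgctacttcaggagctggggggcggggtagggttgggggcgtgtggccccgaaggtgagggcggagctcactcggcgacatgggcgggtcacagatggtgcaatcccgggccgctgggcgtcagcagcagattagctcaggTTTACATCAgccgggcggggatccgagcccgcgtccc
Slc7a11 (chr3:50443564-50443863, - strand): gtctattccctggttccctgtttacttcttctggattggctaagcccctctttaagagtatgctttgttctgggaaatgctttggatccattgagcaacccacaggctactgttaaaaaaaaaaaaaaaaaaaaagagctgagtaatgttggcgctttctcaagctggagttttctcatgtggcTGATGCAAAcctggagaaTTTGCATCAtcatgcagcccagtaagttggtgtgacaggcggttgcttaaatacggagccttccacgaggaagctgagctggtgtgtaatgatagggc
Asns (chr6:7693160-7693459, - strand): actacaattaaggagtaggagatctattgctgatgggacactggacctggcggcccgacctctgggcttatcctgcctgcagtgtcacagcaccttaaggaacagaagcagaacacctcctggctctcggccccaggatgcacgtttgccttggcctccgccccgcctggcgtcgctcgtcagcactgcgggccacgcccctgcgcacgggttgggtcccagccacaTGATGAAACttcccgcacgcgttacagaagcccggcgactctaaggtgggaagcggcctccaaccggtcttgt

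The 4 genes shown did not move alike. Chac1, an enzyme that degrades glutathione, stood at 7.97, 8.95 and 8.33 CPM in early LP and 0.294, 0.419 and 0.312 in HPC and rose by 4.60 (SE 0.21). Trib3, a pseudokinase induced by ATF4, rose by 4.69 (SE 0.32) from 0.210, 0.0837 and 0.234 to 5.01, 3.93 and 5.12 CPM. Slc7a11, the cystine transporter, whose promoter holds 2 matches on opposite strands, rose by 1.55 (SE 0.25) from 0.503, 0.754 and 0.585 to 1.52, 2.22 and 1.67 CPM. Asns, asparagine synthetase, stood at 88.1, 92.8 and 97.9 against 104, 113 and 121 CPM. The groups did not overlap, but the difference of -0.28 missed the threshold (SE 0.12, adjusted p = 0.0509 by edgeR's quasi-likelihood test), and it was called lower under 6 alternatives. Of the other 4 with a match, Pycr1 was higher by 1.004, Got1 was not called at -0.12, and Slc7a7 and Slc1a4 were lower at -0.35 and -0.78, the former with no call under 6 alternatives. Atf4 itself rose by 1.18 (SE 0.10) from 229.5, 185 and 220.4 to 477, 431 and 529 CPM.

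Other members of the list changed on both sides. Slc38a1, a glutamine carrier, fell by 6.66 (SE 0.15) from 184, 186 and 142 to 1.65, 1.80 and 1.58 CPM, while its relative Slc38a2 rose by 1.59 (SE 0.10) from 247, 272 and 213 to 761, 715 and 733. Slc7a2, a cationic amino acid carrier, rose by 3.69 (SE 0.23) from 1.68, 2.76 and 1.13 to 25.8, 23.3 and 22.6 CPM. Gpt2, which turns glutamate and pyruvate into alanine, rose by 3.02 (SE 0.094). In one-carbon metabolism Mthfd1 fell by 1.71 (SE 0.067) from 414, 438 and 439 to 131, 128 and 138 CPM, Mthfd2 rose by 0.51 (SE 0.080), and Mthfd2l was lower by a ratio of 203 (95% counting interval 56 to 1686) with 2 fragments in early LP.

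Heme synthesis and iron genes were mostly lower, as were the red cell markers: 18 of 30 tested were lower and 8 higher (37.9% and 35.3% among all genes). The list had the lowest median of the 33 lists, -0.69. Enzymes along the heme pathway were lower, among them Alad (-2.17), Cpox (-1.81) and Fech (-0.74) in log2 change, while Alas1, the first enzyme in cells other than red cells, rose by 0.86 (SE 0.091) from 511, 426 and 407 to 794, 848 and 800.3 CPM. Its erythroid form Alas2 fell by 3.19 (SE 0.33) from 2.10, 1.34 and 2.11 to 0.218, 0.209 and 0.167 CPM. Of 7 erythroid marker genes with a RefSeq promoter, those of Epor and Alas2 held the GATA motif AGATAA (28.6%, against 6.36% of all promoters, either strand). They are shown as the promoters of an erythroid receptor and enzyme that fell, again with the match in capitals.
Epor (chr9:21963527-21963826, - strand): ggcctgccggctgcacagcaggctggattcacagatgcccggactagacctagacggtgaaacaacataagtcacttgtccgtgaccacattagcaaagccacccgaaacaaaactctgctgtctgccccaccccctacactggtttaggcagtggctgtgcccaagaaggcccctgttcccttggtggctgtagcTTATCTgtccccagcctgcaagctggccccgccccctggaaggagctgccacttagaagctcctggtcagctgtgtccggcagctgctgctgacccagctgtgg
Alas2 (chrX:150547167-150547466, + strand): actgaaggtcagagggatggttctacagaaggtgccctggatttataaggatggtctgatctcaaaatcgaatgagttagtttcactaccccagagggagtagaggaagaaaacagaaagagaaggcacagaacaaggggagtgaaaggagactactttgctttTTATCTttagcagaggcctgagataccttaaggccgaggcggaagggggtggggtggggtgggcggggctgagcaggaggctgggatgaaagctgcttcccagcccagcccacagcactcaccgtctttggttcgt

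Iron handling was divided. Steap3, the reductase of transferrin iron in red cell precursors, fell by 2.65 (SE 0.077) from 137, 148 and 146 to 20.9, 24.4 and 23.1 CPM and Blvrb fell by 2.34 (SE 0.14). Steap2, its relative, was higher by a ratio of 1972 (95% counting interval 674 to 9563), with levels of 85.1, 84.6 and 83.8 CPM in early LP and 3 fragments over the HPC group. Trf, transferrin, rose by 2.98 (SE 0.11) from 43.4, 42.5 and 53.4 to 333, 386 and 381 CPM. Of the ferritin chains, Fth1 fell by 0.78 (SE 0.10) and Ftl1 rose by 1.14 (SE 0.10).

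Lipid mediator and transport genes completed the metabolic lists. Of 24 lipid mediator enzymes 12 were higher and 7 lower (35.3% and 37.9% among all genes). Sphk1, which makes sphingosine phosphate, fell by 8.23 (SE 0.20) from 66.5, 75.7 and 91 to 0.261, 0.293 and 0.208 CPM, and Sgpl1, which degrades it, rose by 1.55 (SE 0.065). Ptgs2, the inducible cyclooxygenase, rose by 3.999 (SE 0.57) from 0.755, 0.419 and 0.273 to 8.75, 4.31 and 10.1 CPM, and the glutathione transferases Mgst1 and Mgst2 rose by 1.71 (SE 0.086) and by 2.20 (SE 0.085). Tbxas1, thromboxane synthase, fell by 1.68 (SE 0.15). Of 26 ABC transporters 12 were lower and 8 higher. Abcb4, a phospholipid flippase, fell by 7.94 (SE 0.13) from 177, 179 and 197 to 0.522, 0.920 and 0.791 CPM, its drug-pump relative Abcb1b fell by 5.74 (SE 0.24) and Abcg4 fell by 3.91 (SE 0.25). Abcd2, a peroxisomal fatty acid carrier, rose by 3.87 (SE 0.15) from 41.6, 37.6 and 26.7 to 529, 504 and 514 CPM, and Abca9 rose by 2.83 (SE 0.19).

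Most splicing factors were lower by a small amount, and most proteasome genes were lower or not called. Of 48 splicing factors 37 were lower, 3 higher and 8 not called, beside 37.9% lower and 35.3% higher among all genes. Their median was -0.35, and their summed level was 12509 to 12879 CPM in early LP and 15757 to 15911 in HPC. Prpf19 fell by 0.90 (SE 0.066), Srsf7 fell by 0.77 (SE 0.069) and Snrpg fell by 0.76 (SE 0.13), each under 2-fold. Rbfox2, a regulator of alternative exons, rose by 4.14 (SE 0.13) from 1.34, 1.97 and 1.37 to 28.4, 27.4 and 26.4 CPM, and Celf2 rose by 0.48 (SE 0.11). Of 38 proteasome genes 17 were lower, 5 higher and 16 not called (57.9% called, below the 73.2% of all genes), and none changed by 2-fold. The regulator subunits parted: Psme4 (PA200) rose by 0.93 (SE 0.088) from 109, 117 and 91.2 to 211, 193 and 199.9 CPM, while Psme1 and Psme3 fell, at -0.65 (SE 0.10) and -0.53 (SE 0.065). Psmb5, a catalytic subunit, rose by 0.57 (SE 0.10).

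Several genes known from the germ line reached high levels in early LP. Of 39 such genes measured, 20 passed the filter, which favours genes high in 1 group. Of these, 12 were higher and 5 lower (35.3% and 37.9% among all genes tested). Brdt, a bromodomain protein of the testis, stood at 150.5, 141 and 149 CPM against 0.755, 1.34 and 1.40 (chromosome 5, 107331194 to 107387058 on mm10) and rose by 6.96 (SE 0.14). Tdrd9, a helicase of the piRNA pathway, rose by 7.45 (SE 0.11) from 0.294, 0.461 and 0.390 to 68.4, 70.5 and 64.7 CPM, and Tex14, a protein of germ cell bridges, rose by 7.32 (SE 0.19) from 0.545, 0.209 and 0.234 to 58.1, 48.5 and 52.3. Dmc1, the meiotic recombinase, rose by 7.02 (SE 0.16) from 0.210, 0.251 and 0.156 to 27.4, 27.9 and 26.3 CPM. Morc1 and Tex19.1, which repress transposons in germ cells, were higher by ratios of 1751 (95% counting interval 599 to 8492) and 1503 (95% counting interval 269 to 59399.6), with 3 and 1 fragments in HPC. Stag3, a meiotic cohesin subunit, fell by 3.37 (SE 0.22) and Msh5 fell by 1.69 (SE 0.22), so the meiosis genes did not share a direction. Tdrd5, Rec8 and Ddx4 were called lower as well. The remaining 19 genes of that list did not pass the filter on low counts.

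**Figure D4:**
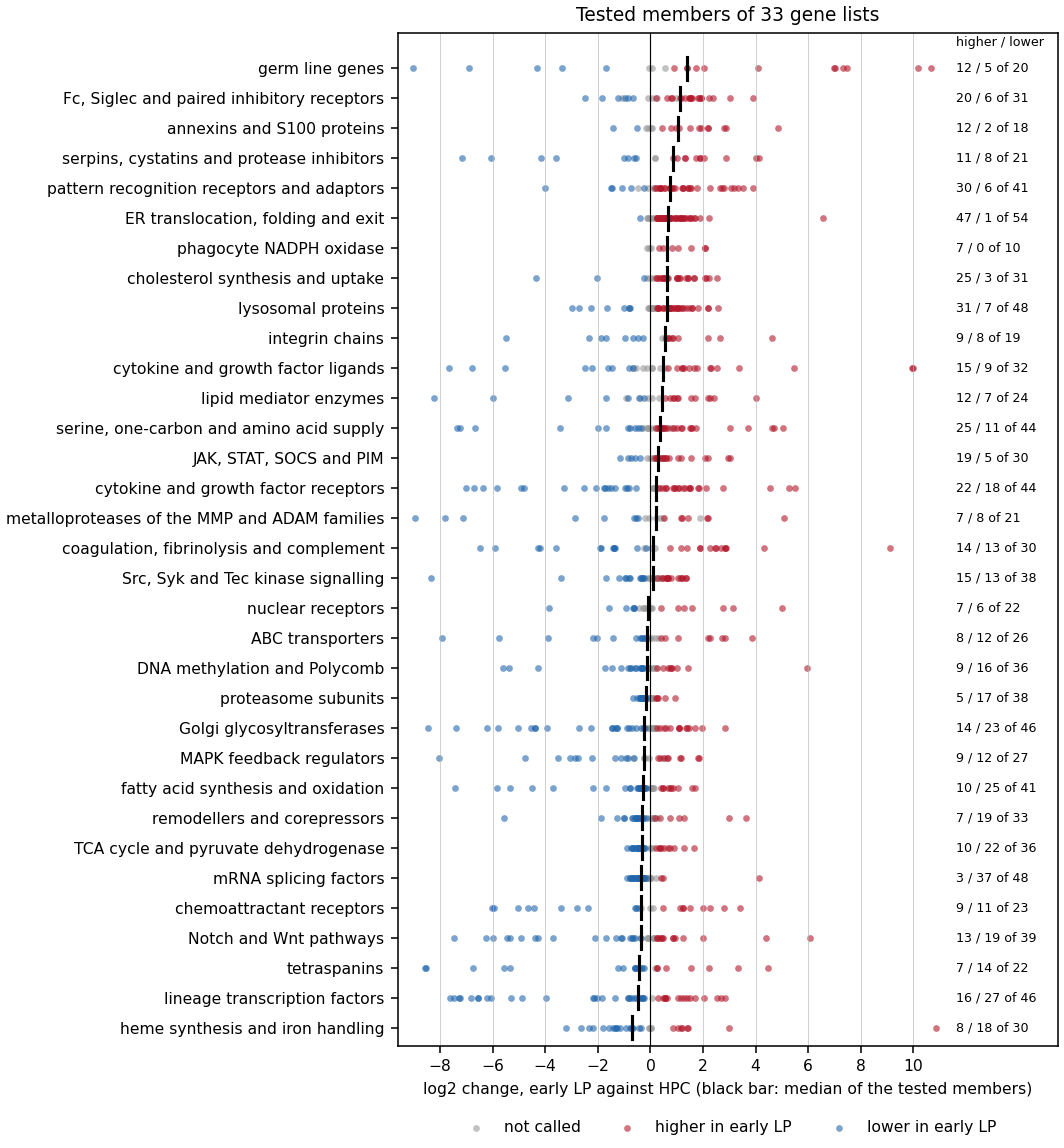
Log2 change of early LP against HPC (horizontal) of every tested member of 33 gene lists (rows, sorted by median); red points are called higher, blue lower and grey not called, black bars are list medians, and the numbers at the right count members higher and lower of those tested. ER translocation, folding and exit has 47 of 54 higher, splicing factors 37 of 48 lower, and lists such as integrin chains (9 higher, 8 lower) spread to both sides.

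In some families, such as hexokinases and glucose carriers, the leading member changed, and in others, such as aldolases and PIM kinases, it stayed. Levels per length (FPKM, fragments per kilobase and per 1 M fragments) allow that comparison within a family. Hexokinases, the first step of glycolysis, shifted from Hk1 to Hk3. Hk1 stood at 25.6, 28.2 and 26.5 FPKM in early LP and 78.7, 84.4 and 90.5 in HPC, and Hk3 at 193, 229 and 214 and 55.7, 53.5 and 46, so Hk1 was the higher of the pair in HPC and Hk3 in early LP. Hk2 rose from 7.95, 6.43 and 5.56 to 15.4, 16.9 and 16.3 FPKM. Hkdc1 was at 1.66, 1.41 and 1.65 FPKM in early LP with 1 fragment in HPC. Pyruvate kinase, the last step, came from Pkm at 238, 211 and 252 FPKM and Pklr, the liver and red cell form, at 34.8, 35 and 39.8 in HPC, and in early LP from Pkm at 724, 891 and 857 with Pklr at 0.137, 0.108 and 0.0888. Pkm rose by 1.84 (SE 0.089) and Pklr fell by 8.35 (SE 0.12) on the log2 scale of CPM. The glucose carriers Slc2a1 (GLUT1) and Slc2a3 (GLUT3) changed order, from 5.23, 4.50 and 5.51 and 11.5, 11.3 and 13 FPKM in HPC to 11.4, 14.2 and 14.01 and 2.72, 2.55 and 2.44 in early LP. Aldoa, the main aldolase, rose from 284, 267 and 319 to 550.3, 697 and 685 FPKM and Aldoc from 0.732, 0.728 and 0.789 to 7.14, 6.75 and 7.45.

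Of the carbonic anhydrases, the main members nearly disappeared. Car1 fell from 1206, 1335 and 1677 to 3.85, 5.92 and 6.03 FPKM and Car2 from 479, 463 and 531 to 2.05, 2.77 and 2.64. Car4, a membrane-anchored form, was at 4.60, 5.95 and 5.34 FPKM in early LP (ratio of counts 273 (95% counting interval 75.3 to 2264), 2 fragments in HPC), which brought it level with what was left of Car1. Car13, the highest member in early LP, stood at 7.35, 8.23 and 8.32 FPKM there and 4.31, 4.49 and 5.98 in HPC. Car12 and Car3 were also higher and Car5b lower, all under 10 FPKM in every library. Among the homeobox cofactors, Meis1 fell from 7.37, 8.61 and 9.85 to 0.0273, 0.0700 and 0.0416 FPKM, while Meis2 reached 1.14, 1.18 and 1.13 FPKM (ratio 221 (95% counting interval 60.9 to 1834), 2 fragments in HPC). Pbx2, the most abundant member in both groups, went from 22.6, 22.1 and 25.9 to 15.3, 14.2 and 15.01 FPKM.

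The D cyclins, which start the cell cycle, came mainly from Ccnd3 in both groups, and the other members fell in early LP. Ccnd2 fell from 15.6, 17.5 and 14.6 to 0.0831, 0.0822 and 0.109 FPKM and Ccnd1 from 1.24, 1.35 and 1.21 to 0.226, 0.123 and 0.129. Ccnd3 stood at 81.1, 99.5 and 96.9 FPKM in early LP and 67.6, 59.4 and 64.5 in HPC and rose by 0.58 (SE 0.086) on the log2 scale of CPM. In the Ikaros family of lymphoid and myeloid zinc finger factors, Ikzf2 (Helios) fell from 3.62, 3.82 and 2.87 to 0.0277, 0.0301 and 0.0699 FPKM and Ikzf1 from 59.95, 60.9 and 63.2 to 33, 36.4 and 34.7, while Ikzf5 was not called at 9.57, 10.6 and 9.47 and 10.6, 10.4 and 10.1. Of the transglutaminases, Tgm2 fell from 2.70, 2.71 and 2.56 to 0.0114, 0.108 and 0.0838 FPKM and F13a1 rose from 41, 34.2 and 33.1 to 238, 259.6 and 251.4. Of the Ras activators, Rasgrp2 dominated both groups, at 60.2, 51.6 and 52.1 and 70.8, 77.2 and 81.3 FPKM, and Rasgrp4, a myeloid form, rose from 2.50, 1.49 and 2.14 to 4.16, 4.85 and 4.23. Of the PIM kinases, which STAT5 is known to induce, Pim1 rose from 29.4, 36.1 and 36.6 to 46.3, 48.8 and 52.4 FPKM and Pim3 from 13.6, 11.9 and 13.9 to 15.9, 16.9 and 19.4. Pim2 was not called, at 4.60, 5.54 and 5.77 and 5.35, 5.44 and 5.16 FPKM, which overlap.

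**Figure D5:**
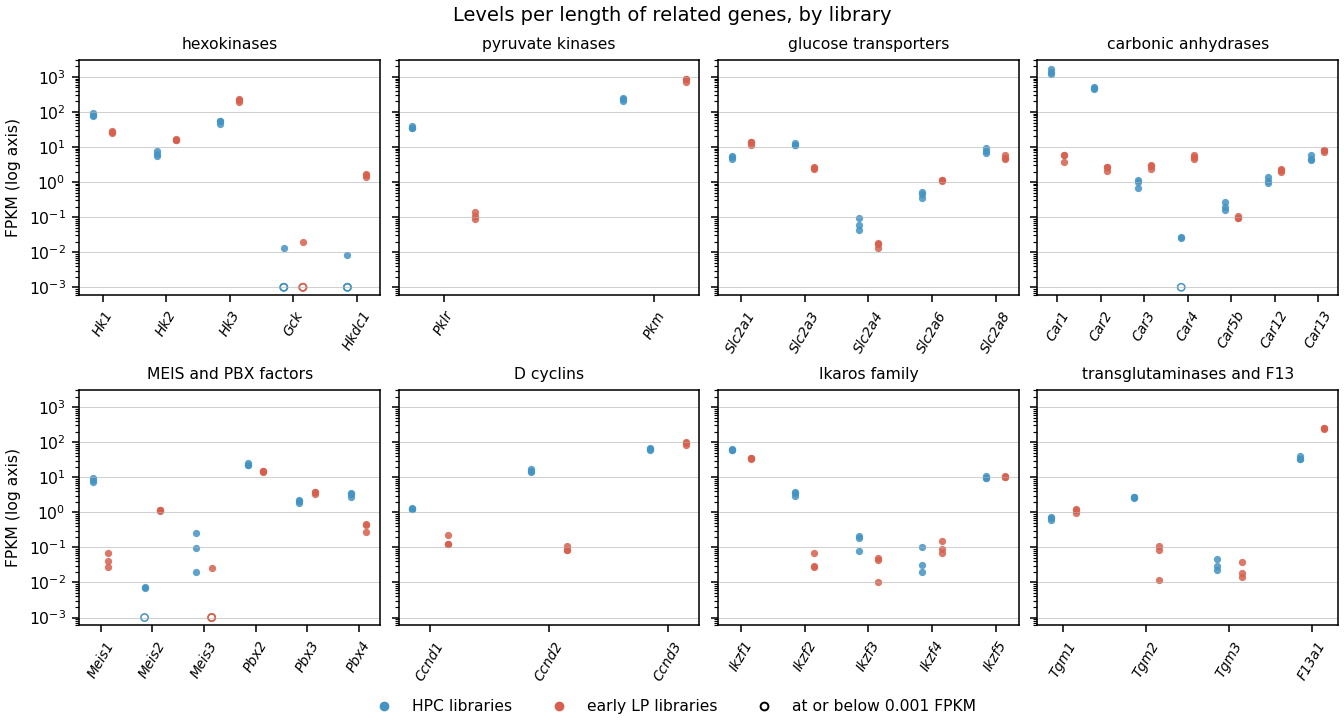
Level per length in FPKM (vertical, log axis) of the members of 8 gene families in every library, HPC in blue and early LP in red; open circles at the bottom are values at or below 0.001 FPKM. Hk3 passes Hk1, Slc2a1 passes Slc2a3 and Pklr and Ccnd2 drop out in early LP, while Ikzf5 overlaps between the groups.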

How the data were processed

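The series deposited 1 table of 21388 transcripts for 9 libraries, with mm10 coordinates and lengths. Per the file headers it holds FPKM and estimated counts for each library. The estimated counts (expected counts) are not whole and were made by the authors with a program that is not given in the sources used here, nor is the strand setting. The submitters' processing notes name TopHat2 2.0.6 and mm10. Each library was divided by its most frequent small value, taken as the step of 1 fragment. That gave depths of 20.6 to 28.4 M, beside deposited totals of 21.9 to 25.8 M. Among low values of genes with 1 transcript, 90.3 to 91.6% were whole fragments (within 0.05).

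Transcripts were summed by gene symbol (16537 genes), rounded and tested with edgeR 4.0.16 in R 4.3.3 (TMM, filterByExpr, quasi-likelihood test with 1 coefficient per group, 9 libraries in 1 fit, contrast of early LP against HPC, Benjamini-Hochberg). The filter kept 12837 genes. Counting intervals cover counting error only. The script was tested on simulated counts. Limma 3.58.1 on log2(FPKM + 1) and log2(FPKM + 0.1) and DESeq2 1.42.0 were alternatives. On the recovered whole fragments edgeR called 4539 genes higher and 4868 lower ("genes called higher", "genes called lower").

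The members and lists were chosen with earlier results of these data known. Genes were named by rule: the 12 largest gains and 12 largest losses in mean CPM among called genes, predicted genes left out; up to 4 called members per list with the largest change whose groups did not overlap and whose higher group had 5 CPM or more; up to 2 called against their list's majority; the 8 most abundant within 1.2-fold; members of paralogue families; and Pml and Rara. Another 101 genes, such as Csf2rb, Tlr4, Brdt, Trib3 and F10, were chosen after their values were seen. Some genes that the rule names are not reported here. Promoters were those of RefSeq (GRCm38.p6), matched for 10203 of 12837 genes. The match was by gene identifier, or by symbol where that failed, on the same chromosome. Of several promoters of a gene, the nearest to its deposited 5′ end was kept.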

Additional observations from a re-analysis of the deposited data

Results flagged for a closer look

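For these genes the median-phase LP libraries differed from early LP in the same fit (edgeR's quasi-likelihood test of the difference, Benjamini-Hochberg over all genes, adjusted p under 0.05), so the change against HPC was not the same in both phases. Values are log2 median-phase LP minus early LP, and the HPC libraries cancel out. Immune receptor and signalling genes were mostly higher in the median phase: Gp49a by 1.599, Lilrb4 by 0.97, Il1r2 by 0.87, Socs3 by 0.70, Cxcr4 by 0.32, Ncf1 by 0.48, Pim1 by 0.36 and Emr1 by 0.84, while Tmem173 differed by -0.63. Among secreted and clotting proteins, Cxcl10 differed by 1.54, BC100530 by 1.01, Thbd by 0.85, F10 by 0.54 and Fst by 0.45, and Ltf by -1.62. Metabolic and secretory genes went to both sides, with Fads2 at 0.94 and Hmgcs1 at 0.56, and Pdia5 at -0.30, B3gnt5 at -0.69, Slc2a3 at -1.02 and Pklr at -2.10.

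Genes of other lineages also differed. Cd34 stood at -1.28, Eng at -1.41, Car1 at -1.87, Car3 at -0.97 and Hdc at -0.43. Alas2 differed by 4.85, with 0.198 ± 0.0274 CPM (mean ± SD, n = 3) in early LP and 5.85 ± 0.979 in the median phase. Gzmb differed by 3.46, Car4 by 1.21 and Tdrd9 by 0.46. Chi3l3, at 0 in all median-phase libraries, had a fitted value of -22.27 that is no measure of size.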

How the results depend on the processing

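The counts of genes called higher and of genes called lower stayed within 1.5 times of the counts reported under each alternative run, from 3856 to 4803 for genes called higher and from 4182 to 5341 for genes called lower. Upper quartile scaling moved the median of all genes to -0.11 and the share of calls on the higher side to 43.9%, from 48.2%. Leaving out a library gave 546 (without early LP 3) to 1019 (without HPC 3) genes with a change held within 1.2-fold, and the long-transcript split, added after the data were seen, gave 1303.

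Few lists moved by more. With limma on log2(FPKM + 0.1) the members called were 13 (chemoattractant receptors), 13 (MAPK feedback regulators), 9 (metalloproteases of the MMP and ADAM families) and 2 (markers: stroma and endothelium, also 2 on log2(FPKM + 1)). Without chromosomes 8 and 15, 4 members of phagocyte NADPH oxidase were called. Of markers: T and NK cell, DESeq2 called 3, a fit with no filter 4, and leaving out a library 1 to 2. The cause was not tested.

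Of 6934 values of 353 named genes under the alternatives, 6865 kept their side of the threshold, 50 lost a call and 19 gained one. No gene called in the main fit reversed its direction. A change of sign in a gene not called there was not counted as a reversal. The genes that lost a call were Car5b, Chi3l3, Eef1a1, Eef2, Canx, Cebpe, Ly6a, Sec24a, Slc7a7 and Socs5. Without the library named, Thbs4 stood at 11.78 (HPC 2), Chi3l3 at 6.25 (early LP 2) and Ikzf4 at 1.93 (HPC 2).

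The labels give the groups the same replicate numbers. Deviations from the group mean correlated across genes at 0.35, -0.19 and 0.38 between libraries of the same number. Between libraries of different numbers they correlated at -0.56 to 0.46. With 3 libraries per group and deviations related to transcript length, these values cannot decide whether the numbers pair the libraries. With the replicate block, the genes called higher numbered 4462 and the genes called lower 4800 in the fit of 6 libraries, and 4467 and 4735 in the fit of 9. Depth limits genes with few fragments, for which ratios with counting intervals are given.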

Other observations

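Some markers of other cell types did not move as their list. Col1a1 and Col1a2, the chains of type I collagen, parted: Col1a1 stood at 2.39, 3.43 and 3.04 CPM in early LP and 0.0839, 0.126 and 0.195 in HPC, and Col1a2 at 0.0871, 0.209 and 0.250 and 4.95, 5.07 and 6.36. Both changes were called, at 4.39 (SE 0.33) and -4.86 (SE 0.31). The MHC class II genes H2-Aa and H2-Ab1, which mark antigen-presenting cells, stood at 0.0871, 0.167 and 0.167 and 0.261, 0.418 and 0.250 CPM in early LP and 4.32, 2.72 and 3.74 and 3.40, 1.97 and 4.45 in HPC. Cd74, the class II invariant chain, stood at 1.78, 2.30 and 1.46 against 15.48, 9.55 and 17.2 CPM. These genes were chosen after their values were seen.

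Single libraries held some values alone. Early LP 2 was low in Chi3l3, Gm7334 and H2-Q6 and high in Chi3l4, early LP 1 was high in Tgoln2, and early LP 3 was high in Amd1. HPC 1 was high in Amd1 and low in Amd2, and HPC 2 was low in H2-Q6. Several of these genes have near-identical copies.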
